A study of Mus musculus with 10 samples.

Results

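Sorted hippocampal cells tagged during a salient experience, aversive or appetitive, were compared as a single group with mock cells, to describe what both experiences have in common. Members were chosen by the titles of the libraries. Those titled neg_1 and neg_3 (aversive) and pos_1 and pos_2 (appetitive) form the 4 salient libraries, those titled mock_1, mock_2 and mock_3 the 3 mock libraries, and the 7 are part of 10 libraries in all. The remaining libraries came from another kit and sequencer by their labels and do not enter the comparison.

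RNA-seq was made from male mice, 5 weeks old by the labels, whose hippocampal regions were microdissected, dissociated and sorted for EYFP; the study writes of nuclei in its results and of cells in its methods, as do the labels, so how far nuclear RNAs below reflect the material cannot be told. A pair of AAV9 viruses carried the tag: the c-Fos promoter drove the transactivator tTA, and tTA switched on ChR2-EYFP through a TRE element when the mice were off doxycycline. Aversive mice received 4 foot shocks of 1.5 mA and 2 s each, appetitive mice met a female for 1 h by the labels (the methods of the study give another duration), and mock mice stayed in their home cage. The methods name FosCreER mice and wild-type C57BL/6 males without tying a strain to each library. Their section on animals gives another age than that of the sorted mice. What limits the groups as a model is that the tag marks cells in which the c-Fos promoter was active off doxycycline rather than neurons as such, that 8 mice were pooled per experimental condition, and that the labels describe ChR2-YFP in all groups while the methods call mock an untagged control of 2 mice, fewer than its 3 libraries. Mock libraries therefore cannot each stand for separate mice, and for the salient libraries separate pools are not stated, so a p-value here measures only the spread between these libraries, which may be technical. All 7 libraries share the SMARTer ultra-low polyA kit and single reads of 40 bp.

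As background, neuronal firing switches on immediate early genes such as Fos, Arc and Egr1 within minutes, and a later wave of genes for secreted peptides and synaptic proteins follows. A cell suspension of hippocampus holds neurons together with astrocytes, oligodendrocytes and their precursors, microglia, and cells of vessels, ventricles and meninges. Marker genes of each type were therefore followed beside genes of neuronal activity, synapses, mitochondria and immune responses.

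Calls of single genes depended on the processing when salient and mock libraries were compared, none by edgeR as first run and many by DESeq2. Many genes stood apart in all 4 salient libraries. Genes such as the nuclear RNA Malat1 and the oligodendrocyte gene Opalin were higher in each salient library, 6.32-fold and 6.93-fold by group means, but not under scaling by library size alone. Nuclear-encoded genes of the respiratory chain had higher fitted values for 79 of 81 tested members, beside 8701 of 15509 for all genes. Fitted values were lower for 13 of 13 endothelial genes, with overlap in each, although 4 of the 13 were higher without mock 2. They were also lower for 16 of 19 immediate early genes, although Arc was higher in each salient library. Most neuronal and synaptic lists, like several lists of glia, vessels and ventricle wall and like all genes together, had higher medians in aversive than in appetitive libraries.

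Depth and composition differed strongly among the libraries. Total counts were 29194873, 20505550 and 49880042 in mock 1, 2 and 3, then 27159427 and 39172609 in aversive 1 and 3, and 26647573 and 16968588 in appetitive 1 and 2. Salient libraries held 17460 ± 4637 detected genes, those with 1 count or more (mean ± SD, n = 4), and mock libraries 24913 ± 5350 (n = 3). Thinned at random to 16968588 counts each, the libraries held 16130 ± 3738 (salient) and 23037 ± 3629 (mock), and with at least 10 counts required at full depth the means were 10743 and 17074. Appetitive 1 and 2 had the fewest genes at full depth, 14144 and 14658, against 20596 in mock 2, the poorest mock library, while aversive 3 with 24189 genes lay within the mock range. Between pairs of mock libraries the Spearman rho over genes was 0.88 to 0.901, and between pairs of salient libraries 0.524 to 0.603; genes are correlated with each other and do not act as replicates. Pairs of a salient and a mock library gave 0.58 to 0.702, so most salient libraries were closer to mock than to each other. No salient library was closest to the other library of its own experience.

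A single myelin gene took a large part of several libraries. Mbp, which encodes myelin basic protein, held 22.8%, 20.4% and 3.37% of all counts in mock 1, 2 and 3, 23.7% and 1.09% in aversive 1 and 3, and 30.8% and 0.983% in appetitive 1 and 2. Mock 3, aversive 3 and appetitive 2 therefore stood apart from the others within each group. Mitochondrially encoded genes held 3.98%, 4.63% and 2.75% of mock, 7.46% and 14.9% of aversive, and 7.997% and 2.13% of appetitive counts. Levels below are CPM, counts scaled to a common total of 1000000 per library, after TMM normalization, which corrects each library by a factor that balances most genes, and these factors ran from 0.51 in appetitive 1 to 1.75 in mock 3. Directions were compared with 3 other scalings: DESeq2's size factors (RLE), library size alone, and, chosen after seeing the data, library size without Mbp and Mobp. Over all genes tested, the median log2 fold change moved with them from 0.24 to 0.38, -0.16 and -0.22. A count of 3 corresponded to between 0.0345 CPM in mock 3 and 0.222 CPM in appetitive 1, taken as the floor of what the depth can show, and such floors cover counting error only because PCR copies could not be told apart. Log2 fold changes fitted to 0 or few counts in a group can exceed what this floor can show. Strongly negative list medians in appetitive libraries, such as those of interneuron, ependymal, GABA-A receptor and border macrophage genes, are therefore not measured sizes. Reads were counted without regard to strand, so a gene that overlaps another cannot be told from it.

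The salient group was tested against mock over 15509 genes with edgeR's quasi-likelihood F test, and a gene was called at a Benjamini-Hochberg adjusted p under 0.05. It called 0 genes (0%), while 1704 genes (11%) had an unadjusted p under 0.05 (229 or 1.48% higher, 1475 or 9.51% lower in salient libraries), and DESeq2 called 1739 of 16606 (10.5%), 87 higher and 1652 lower. At the stricter threshold of the study, an adjusted p under 1e-05 and more than 4-fold, edgeR called 0 genes and DESeq2 135 (0.813%). The smallest adjusted p of edgeR was 0.0539 and was shared by 201 genes, and at under 0.1 it gave 758 genes, 9 higher and 749 lower. The spread between libraries within groups was a coefficient of variation of 137.6%. Leaving out aversive 3 brought 1837 calls, 15 higher and 1822 lower, and an unadjusted p under 0.05 for 3123 genes, while without any other library edgeR called 0. DESeq2's size factors in edgeR gave 206 calls, all lower, and a fit of all 10 libraries 400.

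Each experience was also set against mock by itself in a fit of 3 groups, in which both comparisons use the same mock libraries. For aversive against mock edgeR called 0 of 17595 genes (0%), with 2291 (13%) under an unadjusted p of 0.05 (188 or 1.07% higher, 2103 or 12% lower) and 1606 called by DESeq2. For appetitive against mock it called 0 (0%), with 5052 (28.7%) under an unadjusted p of 0.05 (439 or 2.5% higher, 4613 or 26.2% lower) and 4425 called by DESeq2. Directly between appetitive and aversive libraries edgeR called 0 (0%), 3864 genes (22%) had an unadjusted p under 0.05 (677 or 3.85% higher, 3187 or 18.1% lower in appetitive libraries), and DESeq2 called 3940. Over all genes the median log2 fold changes were 0.10 for aversive and -0.94 for appetitive against mock, and -0.58 between them, so appetitive libraries were lower for most genes. The mean of both experiences in this fit had a median of -0.72 over all genes, beside 0.24 in the pooled fit, -0.96 with the replicate number in the fit and -1.04 with all 10 libraries, so a sign that turns negative in these fits does so together with that of all genes. A p-value that misses the threshold does not show that the experiences were alike.

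What both experiences shared was described by the genes whose 4 salient libraries all lay on the same side of the 3 mock libraries. Of the 15509 tested genes, 665 (4.29%) were higher and 2213 (14.3%) lower in every salient library. Fitted values were higher for 8701 of the 15509. Between appetitive and aversive libraries 11 of the 665, 231 of the 2213 and 3551 of all 15509 genes had an unadjusted edgeR p under 0.05; the choice of genes by their separation from mock itself lowers this count. Library size alone gave 320 higher (2.06%) and 2313 lower (14.9%) genes, and the scaling without Mbp and Mobp 312 and 2522. With fewer libraries to separate the counts grew. They were 1139 higher without appetitive 2, 1098 without aversive 3, 1065 without aversive 1 and 1055 without appetitive 1, and 3773 lower without aversive 3.

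The 2 sets lay at different expression levels. The 665 higher genes had a median of 23.8 CPM in mock and 72.9 CPM in salient libraries, and the 2213 lower genes 4.84 and 0.113 CPM. Of the lower genes, 234 had 0 counts in all salient libraries, 776 had at most 3 counts in each, so that they passed the filter on low counts through mock alone and had to be lower, and 1436 were under 1 CPM in each, while 715 reached 10 CPM and 36 reached 100 CPM in the mock mean. Sorted by the mean over all 7 libraries, 42.4% of genes under 1 CPM and 22.8% of those from 1 to 10 CPM were lower in all 4, against 0.913% of those from 100 to 1000 CPM and 0% above. For the higher genes the shares were largest in the upper ranges, with 1.8%, 1.37%, 5.22%, 12.6% and 15.6% from the lowest to the highest range. Transcript length differed as well: the median of summed exon bases was 2399.5 in the higher, 4292 in the lower and 4185 in all tested genes. Among genes with under 1000 exon bases 11.8% were higher and 5.95% lower in all 4, and among those with 8000 or more 2.16% and 10.7%. The part of expression level, length and number of detected genes in the results below was not tested.

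**Figure D1:**
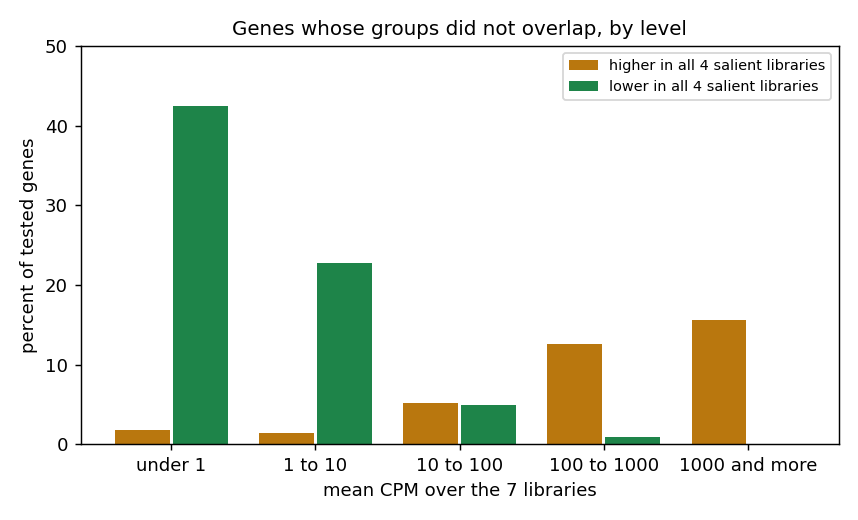
Percent of tested genes (y axis) whose 4 salient libraries all lay above, or all below, the 3 mock libraries, by mean normalized CPM over the 7 libraries (x axis, 5 ranges). Genes lower in all 4 make up 42.4% of the lowest range and 0% of the highest, and genes higher in all 4 make up 1.8% and 15.6%.

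Among the 10 higher non-overlapping genes with the smallest p were 2 long noncoding RNAs, Malat1 and Snhg20, and the mRNAs of 2 proteins that act on RNA in the nucleus, Son and Ddx17. They were grouped here after their values were seen, and RNA processing was not analysed here as a list. Of the 10 genes edgeR called none and DESeq2 all but Josd2, with DESeq2 adjusted p-values of 0.0302 (Malat1), 0.0363 (Son), 0.00384 (Ddx17) and 0.00108 (Snhg20).

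Malat1 (ENSMUSG00000092341, chromosome 19 of GRCm38 from 5795690 to 5802672) is a long noncoding RNA kept in nuclear speckles. Its level was 513, 1155 and 813 CPM in mock, 2265 and 8633 CPM in aversive and 2504 and 7491 CPM in appetitive libraries. All salient libraries lay above all mock libraries, with aversive 3 and appetitive 2 highest, except under library size alone, where the groups overlapped. The log2 fold change was 2.66 (SE 0.70), with an edgeR adjusted p of 0.0817. Against mock it was 2.69 in aversive and 2.58 in appetitive libraries.

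Snhg20 (ENSMUSG00000086859, chromosome 11 from 117076008 to 117078955), host of a small nucleolar RNA and overlapped by Mir6516 and Gm26083, had the smallest p among the higher genes. Mock libraries held 17.1, 22.5 and 12.7 CPM, aversive 97.4 and 198 CPM, and appetitive 116.5 and 196 CPM. No value of a salient library came near the mock range, and this held in each of the other scalings. The log2 fold change was 3.12 (SE 0.72, edgeR adjusted p = 0.0615), with 3.06 in aversive and 3.15 in appetitive libraries. Ddx17 (ENSMUSG00000055065, chromosome 15 from 79527736 to 79546741) encodes an RNA helicase of transcription and splicing. It stood at 26.4, 32.7 and 31.1 CPM in mock, 96.4 and 303 CPM in aversive and 247 and 239 CPM in appetitive libraries. Groups did not overlap in any scaling, and the log2 fold change was 2.88 (SE 0.67).

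Son (ENSMUSG00000022961, chromosome 16 from 91647506 to 91679221), which encodes a splicing factor of nuclear speckles and overlaps Donson, had 144, 186 and 194 CPM in mock, 465 and 1330 CPM in aversive and 493 and 907 CPM in appetitive libraries, a log2 fold change of 2.19. Chosen after their values were seen, Srrm2, a further speckle protein gene, and Rsrp1, which encodes an arginine- and serine-rich protein, were also higher in all 4. Srrm2 had 68.9 to 163 CPM in mock and 169 to 664 CPM in salient libraries, so that mock 3 nearly reached aversive 1. Rsrp1 ran from 356 to 728 CPM in mock and from 934 to 2191 CPM in salient libraries. Rn7sk, the small nuclear RNA that restrains transcription elongation, likewise chosen afterwards, had 4.83 to 12.8 CPM in mock and 31.4 to 102 CPM in salient libraries.

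The list of 8 nuclear long noncoding RNAs held 7 tested genes, each with a higher fitted value in every scaling, and a median log2 fold change of 2.66 beside 0.24 for all genes. Against the shared mock the medians were 2.89 in aversive and 1.25 in appetitive libraries. Only Malat1 of the 7 was free of overlap, against a background of 4.29%; this number was 0 under library size alone (2.06%) and 3 without mock 3 (5.19%) or without appetitive 1 (6.83%). Without aversive 3 only 5 of the 7 had higher fitted values, 1 was lower in all salient libraries, and the median was 1.33. Neat1, the scaffold of paraspeckles, was 50.7, 54.4 and 99.2 CPM in mock, 92.8 and 370 CPM in aversive and 75.3 and 346 CPM in appetitive libraries. Aversive 3 and appetitive 2 were again highest, while aversive 1 and appetitive 1 lay within the mock range. Meg3, a noncoding RNA of an imprinted locus active in neurons, reached 372 CPM in aversive 3 and 7.57 to 36.9 CPM in the other salient libraries, against 2.43 to 29.4 CPM in mock. The summed level of the list was 588 to 1228 CPM in mock and 2458 to 9820 CPM in salient libraries, most of it Malat1.

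**Figure D2:**
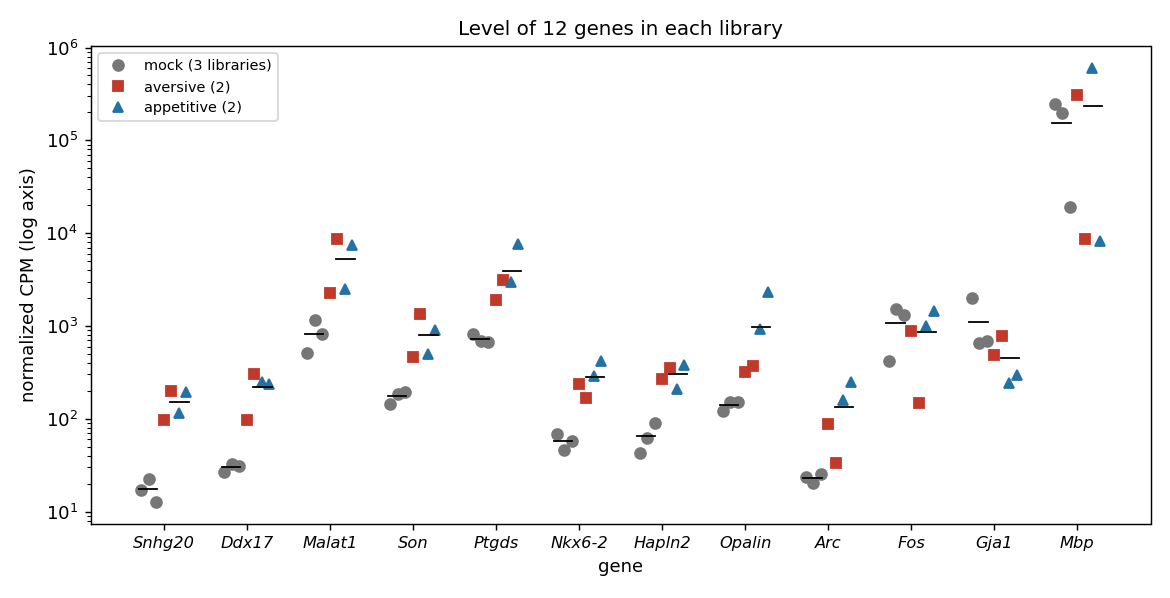
Normalized CPM (y axis, log scale) of 12 genes in each of the 7 libraries, with black lines at the means of mock and of salient libraries. The 4 salient points of Snhg20, Ddx17, Malat1, Son, Ptgds, Nkx6-2, Hapln2, Opalin and Arc lie above all 3 mock points, which for Malat1, Son, Hapln2, Opalin and Arc is not so under library size alone (for Arc also without Mbp and Mobp), and those of Fos, Gja1 and Mbp overlap with mock.

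Genes of mature oligodendrocytes, the cells that wrap axons in myelin, had mostly higher fitted values in salient libraries, with a median log2 fold change of 1.31 over 14 genes. The medians were 0.49 in aversive and 1.80 in appetitive libraries against the same mock. Fitted values were higher for 13 of the 14, the exception being Mobp at -0.03, and for 12 of 14 under library size alone. In 5 genes, Opalin, Aspa, Trf, Mog and Mal, all 4 salient libraries lay above mock, 35.7% of the list against 4.29% of all genes; this count was 0 under library size alone (2.06% of all genes), 2 of 12 without Mbp and Mobp in the totals (2.04%), 9 without mock 3 (5.19%) and 8 without aversive 3 (7.4%). In bulk libraries, fewer cells of a type and less RNA per cell cannot be told apart.

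Opalin (ENSMUSG00000050121, chromosome 19 from 41061710 to 41077113) encodes a membrane glycoprotein of myelinating oligodendrocytes. Mock libraries had 120.6, 153 and 152.5 CPM, aversive 319.9 and 369 CPM, and appetitive 926 and 2322 CPM. Mock values were close together and each appetitive library was higher than both aversive ones. The log2 fold change was 2.79 (SE 0.79, edgeR adjusted p = 0.104), 1.26 in aversive and 3.50 in appetitive libraries, and the direct comparison of appetitive with aversive had an unadjusted edgeR p of 0.0102. Aspa, the enzyme that splits N-acetylaspartate to acetate for myelin lipids, followed the same order with 71.4 to 112 CPM in mock, 215 and 201 CPM in aversive and 522 and 1273 CPM in appetitive libraries. Trf, which encodes the iron carrier transferrin, had 85 to 149.7 CPM in mock and 222.5 to 1163 CPM in salient libraries. Mog, a surface protein of the outer myelin sheath, had 222 to 393 CPM in mock, 519 to 700 CPM in 3 salient libraries and 3097 CPM in appetitive 2.

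The most abundant myelin gene behaved otherwise. Mbp stood at 244200, 198900 and 19320 CPM in mock, 308400 and 8656 CPM in aversive and 607100 and 8222 CPM in appetitive libraries. It was thus high in both replicate 1 libraries of the salient group and in mock 1 and 2, low in the others, and fully overlapping (log2 fold change 0.60, SE 1.40, and -0.13 under library size alone).

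Nkx6-2, Hapln2 and Ptgds, among the 10 higher genes with the smallest p, were grouped here after their values were seen. Ptgds is a member of the fibroblast matrix list. Nkx6-2 (ENSMUSG00000041309, chromosome 7 from 139579376 to 139582797) encodes a transcription factor of maturing oligodendrocytes and overlaps Inpp5a. Levels were 68.3, 45.9 and 57.2 CPM in mock, 236 and 167 CPM in aversive and 292 and 419 CPM in appetitive libraries, with a log2 fold change of 2.29 (SE 0.61). Hapln2 (ENSMUSG00000004894, chromosome 3 from 88021750 to 88027583), a link protein of the matrix at nodes of Ranvier, had 42.3, 62.1 and 89.0 CPM in mock, 266 and 350 CPM in aversive and 208 and 383 CPM in appetitive libraries. Nkx6-2 was free of overlap in all scalings, Hapln2 in all but library size alone. Ptgds (ENSMUSG00000015090, chromosome 2 from 25466709 to 25470046), the prostaglandin D synthase of meninges and oligodendrocytes, was at 822, 693 and 671 CPM in mock and at 1910, 3123, 2976 and 7630 CPM in aversive 1, aversive 3, appetitive 1 and appetitive 2. It was separated in every scaling, with a log2 fold change of 2.42 (SE 0.62), 1.76 in aversive and 2.84 in appetitive libraries. Serpinb1a, a protease inhibitor, and Josd2, a deubiquitinase, completed the higher genes, with log2 fold changes of 2.38 and 2.33 and no overlap in any scaling.

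Other genes known from oligodendrocytes, chosen after their values were seen for a salient mean of at least 1000 CPM, were Car2, which encodes a carbonic anhydrase, Cryab, a small heat shock protein, and Apod, a lipid carrier. Car2 had 823 to 1240 CPM in mock, 1893 to 2740 CPM in 3 salient libraries and 8696 CPM in appetitive 2. Cryab ran from 343 to 766.5 CPM in mock and from 1096 to 3878 CPM in salient libraries, Apod from 241 to 593 and from 776.5 to 4790 CPM. For each of the 3, appetitive exceeded aversive libraries with an unadjusted edgeR p of 0.045 (Car2), 0.0485 (Cryab) and 0.0325 (Apod). The transcription factor gene Olig1, of the whole lineage, differed less, with 195 to 309 CPM in mock and 350 to 662 CPM in salient libraries.

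Oligodendrocyte precursor genes had mostly lower fitted values, 7 of 8 members. In 5 each salient library was below each mock library (14.3% of all genes), in 4 under library size alone (14.9%) and in 7 without aversive 3 (25.4%). Pdgfra, C1ql1 and Neu4 among them passed the filter on low counts through mock alone and so had to be lower, and their number gives no support for the list. Medians of the log2 fold change were -3.41, or -3.22 with the gene at 0 counts placed at its bound, -2.62 in aversive and -7.13 in appetitive libraries.

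Pdgfra (ENSMUSG00000029231, chromosome 5 from 75152292 to 75198215), the growth factor receptor that defines precursors, had 17.2, 9.24 and 7.09 CPM in mock. Salient libraries held 3 and 2 counts in aversive and 1 and 0 counts in appetitive libraries, at most 0.144 CPM. Mock libraries held 469, 194 and 617 counts, so the groups were far apart (log2 fold change -7.38, SE 2.08, edgeR adjusted p = 0.101, DESeq2 adjusted p = 1.12e-06). C1ql1 (ENSMUSG00000045532, chromosome 11 from 102939264 to 102946688), a secreted synaptic organizer, had 152, 40 and 38 counts in mock and 0 in all 4 salient libraries, at least 11.9-fold lower by the mean of mock over the highest floor of a salient library. Neu4, a sialidase, had 2.82 to 11.2 CPM in mock and at most 0.0812 CPM in salient libraries. Gpr17, a receptor of committed precursors, had 18.0 to 38.65 CPM in mock, 16.4 CPM in aversive 3, and 0, 0 and 0.345 CPM in aversive 1, appetitive 1 and appetitive 2. Vcan and Lhfpl3 were also present in aversive 3, at 17.9 and 6.62 CPM, and at most 0.0986 CPM in the other salient libraries. Summed over the list, mock had 45.0 to 97.5 CPM, aversive 3 47.2 CPM and the other salient libraries 0.287 to 1.58 CPM, so that precursor transcripts were near the floor in 3 of 4 salient libraries.

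Nuclear-encoded genes of the respiratory chain, whose products pass electrons to oxygen and make ATP in mitochondria, had higher fitted values for nearly all members. Of 81 tested genes (83 members), 79 had higher fitted values (8701 of 15509 for all genes), and 74 under library size alone (7068 of 15509). The median log2 fold change was 1.19, with 0.99 in aversive and 1.25 in appetitive libraries against the same mock and 0.24 for all genes. In 35 genes (43.2% against 4.29% of all genes) the 4 salient libraries lay above all mock libraries, 28 under library size alone (2.06% of all genes) and 19 of 81 without Mbp and Mobp in the totals (2.04%). An unadjusted edgeR p under 0.05 was met by 12, all higher, against 1.48% of all genes on that side. None was called by edgeR. Between appetitive and aversive libraries 0 of the 81 had an unadjusted edgeR p under 0.05, against 22% of all genes. Members of the list were short and abundant, with a median of 1569 exon bases and 144.8 CPM, and genes of such length and level were more often higher in all 4.

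Summed over the list, mock 1, 2 and 3 had 12580, 13380 and 5788 CPM, aversive 1 and 3 had 25790 and 19260 CPM, and appetitive 1 and 2 had 35480 and 15290 CPM. Each salient sum exceeded each mock sum, with mock 3 lowest of all. Ndufa3 (ENSMUSG00000035674, chromosome 7 from 3617373 to 3620327), an accessory subunit of complex I that overlaps Tfpt, had 171, 267 and 59.5 CPM in mock, 503 and 387 CPM in aversive and 764 and 421 CPM in appetitive libraries. The salient values were all higher, and the log2 fold change was 1.64 (SE 0.64, edgeR adjusted p = 0.309). Cox7a2 (ENSMUSG00000032330, chromosome 9 from 79755361 to 79759878), a subunit of complex IV, had 189, 217 and 68.9 CPM in mock, 435 and 409 CPM in aversive and 756 and 302.5 CPM in appetitive libraries. Cox6a1, the most abundant member, ran from 210 to 991 CPM in mock and from 498 to 4152 CPM in salient libraries, overlapping because appetitive 2 was low.

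By complex, all 36 tested genes of complex I, 8 of 8 of complex III and 16 of 16 of complex IV had higher fitted values, with medians of 1.23, 1.24 and 1.58. No overlap was seen for 21, 5 and 4 of them, beside 4.29% of all genes. Complex V, the ATP synthase, had 16 of 17 higher with a median of 0.78, the exception being Atp5a1 (378 to 609 CPM in mock, 334 to 508 CPM in salient libraries). Complex II, which is also an enzyme of the citric acid cycle, had a median of 0.35 over 4 genes. Its subunit Sdhb was above mock in all 4 with 241 to 469 CPM against 96.6 to 198 CPM, while Sdha ran from 253 to 454 CPM in mock and from 111 to 549 CPM in salient libraries. In summed level, complex IV had 1161 to 4011 CPM in mock and 2890 to 15490 CPM in salient libraries, with appetitive 2 within the mock range.

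**Figure D3:**
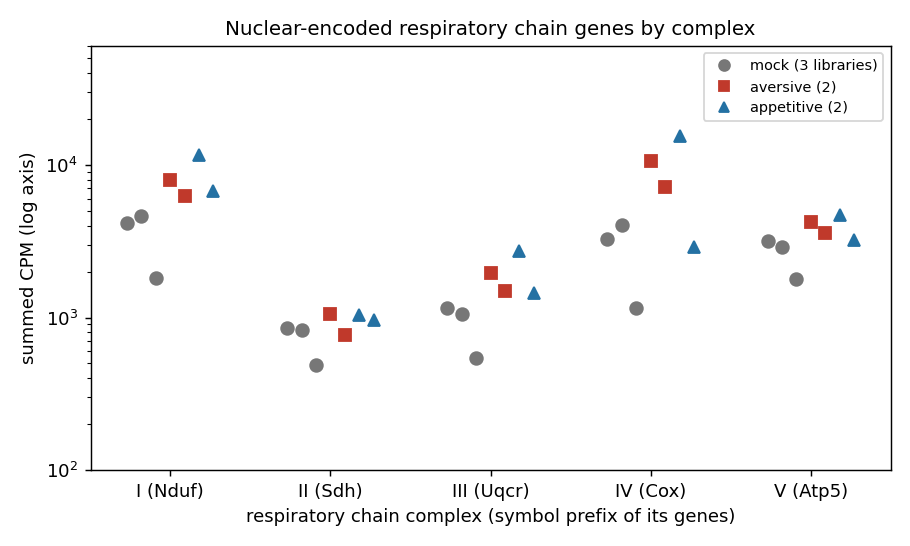
Summed normalized CPM (y axis, log scale) of the nuclear-encoded genes of each respiratory complex in the 7 libraries. For complexes I, III and V every salient library lies above every mock library, and for complexes II and IV the groups overlap.

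Mitochondrially encoded genes, read from the genome of the organelle itself, overlapped between the groups. All 7 tested members of 13 had higher fitted values in every scaling, with a median of 1.33, and 1.34 in aversive and 1.41 in appetitive libraries. mt-Cytb, the most abundant, had 8781, 9165 and 3691 CPM in mock, 19170 and 14840 CPM in aversive and 28050 and 5959 CPM in appetitive libraries. Appetitive 2 lay below mock 1 and 2, so 0 of 7 members were free of overlap (4.29% of all genes on the higher side), and without that library 7 of 7 were (7.48%). Genes for cytosolic ribosomal proteins had higher fitted values for 73 of 80 tested members (68 under library size alone) and a median of 0.97, with 0.90 in aversive and 0.93 in appetitive libraries. No overlap on the higher side was found for 9 of the 80 (4.29% of all genes), among them Rps15 and Rpl29, and for 36 without appetitive 2 (7.48%), 17 of 81 without mock 2 (4.95%). Reads of ribosomal protein genes can be split with their many pseudogenes, so single members are uncertain. Rps15, a protein of the small subunit, had 36.5, 33.6 and 13.0 CPM in mock, 60.1 and 95.8 CPM in aversive and 110 and 44.4 CPM in appetitive libraries.

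As the respiratory genes had a common direction, their promoters were searched for a motif of the kind bound by NRF1, a transcription factor known for controlling many of them: GCGC, any 2 bases, then GCGC, which reads the same on both strands. RefSeq promoters of GRCm38.p6, from 250 bases before to 50 after the start of each gene, were matched by symbol for 66 of the 83 members. The motif was in 18 of the 66 (27.3%) and in 1891 of 27025 promoters of all genes (7%). It was in 9 of 31 members higher in all 4 salient libraries (29%) and in 9 of 35 other members (25.7%). A match is no evidence of binding, and the motif did not separate the members that were higher in all 4 from the rest. The stretches that follow are from 3 such promoters of complex I genes, with the motif in capitals (12 bases in Ndufv2, where 2 matches overlap), chosen because they lie outside annotated exons. Ndufv2 (157, 166 and 69.8 CPM in mock, 201 to 443 CPM in salient libraries) has it at chr17:66101560-66101619, Ndufb4 (6.21 to 17.1 and 17.8 to 42.9 CPM) at chr16:37654525-37654584 and Ndufs5 (8.93 to 25.9 and 27.9 to 40.5 CPM) at chr4:123718250-123718309, all on the minus strand, starting 17, 191 and 98 bases before the gene.
Ndufv2: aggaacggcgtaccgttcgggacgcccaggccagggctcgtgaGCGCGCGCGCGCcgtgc
Ndufb4: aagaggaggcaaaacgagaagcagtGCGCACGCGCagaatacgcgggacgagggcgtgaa
Ndufs5: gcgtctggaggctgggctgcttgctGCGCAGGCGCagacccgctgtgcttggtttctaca

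Immediate early genes had mostly lower fitted values, with Arc as an exception. Of 19 tested genes (21 members), 16 had lower fitted values, with a median log2 fold change of -0.95, -0.73 in aversive and -1.19 in appetitive libraries. Arc was higher and Egr3 lower in all 4 salient libraries, 1 of 19 each (5.26%, against 4.29% and 14.3% of all genes), and the others overlapped with mock. Egr3 passed the filter on low counts through mock alone and so had to be lower. Mock 1 was low for most of the list, with a summed level of 2161 CPM against 9258 and 7214 CPM in mock 2 and 3, 6380 and 1495 CPM in aversive and 4278 and 3534 CPM in appetitive libraries, and without mock 1 the lower genes free of overlap numbered 7 (36.8%, against 18.3% of all genes).

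Fos (ENSMUSG00000021250, chromosome 12 from 85473890 to 85477273), whose promoter drives the tag, had 419.8, 1506 and 1324 CPM in mock, 878 and 148 CPM in aversive and 995 and 1440 CPM in appetitive libraries. The groups overlapped, mock cells were not poor in Fos, and the lowest value was that of aversive 3 (log2 fold change -0.32, SE 0.74; 0.03 at the upper end when single libraries were left out). Arc (ENSMUSG00000022602, chromosome 15 from 74669083 to 74672570), a capsid-like protein of synaptic plasticity, had 23.9, 20.3 and 25.3 CPM in mock, 88.0 and 33.3 CPM in aversive and 158 and 251 CPM in appetitive libraries. Mock values were tight and every salient library was above them, though not under library size, with or without Mbp and Mobp. The log2 fold change was 2.52 (SE 0.84, edgeR adjusted p = 0.179), 1.37 in aversive and 3.13 in appetitive libraries, with an unadjusted edgeR p of 0.0856 between them.

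Egr1, a zinc finger transcription factor, had 189, 594 and 758 CPM in mock, 681 and 106 CPM in aversive, and 3.40 and 218 CPM in appetitive libraries. Its lowest value, 46 counts in appetitive 1, was in the same library that had 13476 counts of Fos. Egr3, of the same family, had 1.14, 5.10 and 5.42 CPM in mock, 3 and 5 counts in aversive and 0 in both appetitive libraries, a log2 fold change of -5.84 (SE 1.88). Npas4, an early gene held to be specific to neurons, had 15 counts in mock 3 and 0 in the other 6 libraries, and was not tested. Jun, a partner of Fos in AP-1, ran from 198 to 1392 CPM in mock and from 194 to 323.6 CPM in salient libraries.

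Among late activity-regulated genes 9 of 11 tested members (13 in all) had lower fitted values, with a median of -2.04, -3.07 in aversive and -5.45 in appetitive libraries. Inhba, Scg2, Vgf and Penk were below mock in each salient library (4 of 11, and 14.3% of all genes), but Inhba, Scg2 and Vgf passed the filter on low counts through mock alone and so had to be lower, and their number gives no support for the list. Without aversive 1 or without mock 2 there were 7 genes below mock in each salient library, beside 21.4% and 18.2% of all genes. Inhba (ENSMUSG00000041324, chromosome 13 from 16011851 to 16031621), which encodes activin A, had 58, 16 and 97 counts in mock and 0, 0, 0 and 1 counts in salient libraries. Scg2, a granin of secretory granules, had 94, 43 and 116 counts in mock and 1, 4, 0 and 0 in salient libraries. Vgf, a precursor of neuropeptides, had 0.857 to 1.62 CPM in mock and at most 0.183 CPM in salient libraries. Rgs2, a regulator of G protein signaling and the most abundant member, was not separated, with 23.8, 62.0 and 173 CPM in mock and 81.0 to 161 CPM in salient libraries, and its log2 fold change of 0.49 was -0.23 under library size alone. Bdnf, which encodes a growth factor of synapses, had 2.72, 0.381 and 0.598 CPM in mock, 9.01 CPM in appetitive 1 and at most 0.0203 CPM in the other salient libraries.

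The label of the cells as tagged neurons of an engram was set against neuronal markers, which were present in all groups but low and uneven. Pan-neuronal genes had higher fitted values for 10 of 12 members with a median log2 fold change of 1.12 in the pooled fit. They were 1.34 in aversive and -1.27 in appetitive libraries against the same mock, and in the fit of 3 groups their mean gave -0.41, beside -0.72 for all genes, so the sign of the list depends on the experience and the fit. Between appetitive and aversive libraries 6 of the 12 had an unadjusted edgeR p under 0.05, against 22% of all genes. Summed levels were 401, 280 and 221 CPM in mock, 908 and 621 CPM in aversive and 731 and 255.8 CPM in appetitive libraries. Much of this was Snap25, a protein of vesicle fusion, with 125, 107 and 36.7 CPM in mock, 404 and 124 CPM in aversive and 545 and 145 CPM in appetitive libraries. Syn1, which coats synaptic vesicles, had 8.24 to 16.2 CPM in mock and 106 and 107 CPM in aversive libraries, but 7 counts and 1 count in the appetitive ones (edgeR, unadjusted p = 0.000876 between the experiences). Rbfox3, the gene of the nuclear neuronal marker NeuN, had 2.76 to 6.51 CPM in mock, 33.5 and 16.2 CPM in aversive and 1.11 and 0.0986 CPM in appetitive libraries, so the defining marker was near the floor in appetitive 2.

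Markers of hippocampal excitatory neurons had a median near 0, -0.17 over 13 tested genes of 15, with 0.75 in aversive and -3.95 in appetitive libraries; the pooled sign turned without mock 1 (0.27), without aversive 1 (0.24) and without either appetitive library (0.12 and 0.26). Nrgn, a calmodulin-binding protein of dendritic spines, had 45.3, 45.1 and 13.7 CPM in mock, 200 and 151 CPM in aversive and 486 and 20.1 CPM in appetitive libraries. It was high in 3 salient libraries and within the mock range in appetitive 2 (log2 fold change 2.63, SE 1.01). Neurod6, a transcription factor of pyramidal cells, had 182, 39 and 56 counts in mock, 1 and 4 in aversive and 0 in both appetitive libraries. This gene passed the filter on low counts through mock alone and so had to be lower. Pou3f1 was spread from 0 CPM in aversive 1 to 158 CPM in appetitive 1, against 3.30 to 10.8 CPM in mock. Slc17a7, the vesicular glutamate transporter of these cells, had 4.53 to 25.7 CPM in mock, 16.1 and 26.0 CPM in aversive, and 0.665 and 0.591 CPM in appetitive libraries.

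Interneuron genes had 5 of 8 tested members (10 in all) higher, beside 8701 of 15509 for all genes. Their median was 0.60, with 1.09 in aversive and -7.95 in appetitive libraries, the latter a fitted value beyond what the floor can show. Summed over the list, mock had 26.7, 34.7 and 15.8 CPM, aversive 91.3 and 38.1 CPM, and appetitive 83.6 and 0.0493 CPM. The pooled median turned to -0.28 without aversive 1, -2.66 with the replicate number in the fit, -3.28 in the fit of 3 groups and -3.52 with all 10 libraries (-0.96, -0.72 and -1.04 for all genes in these 3 fits). Lhx6, a transcription factor of inhibitory cells, had 15, 49 and 83 counts in mock and 0 in all salient libraries, at least 5.78-fold lower. Gad2, an enzyme of GABA synthesis, had 75, 10 and 219 counts in mock, 6 in aversive 3 and 0 in the other salient libraries. Lhx6 and Gad2 passed the filter on low counts through mock alone and so had to be lower. Sst had 1.51 to 4.38 CPM in mock, 19.5 and 3.57 CPM in aversive and 35.0 and 0.0493 CPM in appetitive libraries. Npy, like Sst a neuropeptide, had 15.8 and 48.5 CPM in aversive 1 and appetitive 1 but 0.162 and 0 CPM in aversive 3 and appetitive 2.

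Genes of synapses also had higher medians in aversive than in appetitive libraries, as had all genes (0.10 and -0.94), with an unadjusted edgeR p under 0.05 between appetitive and aversive libraries for 6 of 15 glutamate receptor, 4 of 11 GABA-A receptor, 7 of 21 vesicle and 8 of 21 postsynaptic genes, against 22% of all genes. Lists without a tie to synapses had as many, such as 9 of 19 ependymal, 5 of 8 fibroblast and 7 of 15 activated microglia genes. Ionotropic glutamate receptor subunits had a pooled median of 1.31 over 15 tested of 18, from 0.70 in aversive and -0.52 in appetitive libraries, and -0.25 without aversive 3. It was -0.94 in the fit of 3 groups (-0.72 for all genes) and -2.05 with the replicate number in the fit (-0.96 for all genes). Gria2, an AMPA receptor subunit, had 120, 28.7 and 81.1 CPM in mock, 54.4 and 559 CPM in aversive and 192.5 and 86.3 CPM in appetitive libraries. Aversive 3 stood highest while aversive 1 lay within the mock range. Grin2b, an NMDA receptor subunit, was 109 CPM in aversive 3, 16.6 CPM in aversive 1 and 2.66 to 3.92 CPM in appetitive libraries, against 1.10 to 7.03 CPM in mock. Grid1, a delta receptor, had 59, 12 and 111 counts in mock, 4 in aversive 3 and 0 in the others. It was the only tested subunit lower in all 4 (6.67%, against 14.3% of all genes), but passed the filter on low counts through mock alone and so had to be lower.

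GABA-A receptor subunits had a median of -1.45 over 11 tested of 14, -1.11 in aversive and -7.32 in appetitive libraries, though DESeq2 gave 0.10. Summed over the list, mock had 385, 117 and 138 CPM, aversive 83.3 and 381 CPM, and appetitive 87.8 and 28.9 CPM. In 3 of the 11 each salient library was below each mock library (27.3%, against 14.3% of all genes), and in 1 under library size alone (14.9%). Among the 3, 1 had 0 counts in all salient libraries and so had to be lower. Gabrd, the subunit of extrasynaptic receptors, was 0.191 to 0.965 CPM in mock, 0.479 and 7.75 CPM in aversive and 80.8 and 0.0986 CPM in appetitive libraries. Its log2 fold change of 5.18 rests on appetitive 1, and was 2.04 at the lowest when single libraries were left out.

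Synaptic vesicle and granule genes had a median of 0.52 over 21 tested of 22, 0.88 in aversive and -2.62 in appetitive libraries, and -0.46 in the fit of 3 groups (-0.72 for all genes). Syn3, Scg2 and Vamp1 were lower in all 4 (14.3% of the list and of all genes) and Cplx2, a regulator of vesicle release, higher (4.76% against 4.29%). Syn3 and Scg2 passed the filter on low counts through mock alone and so had to be lower. Syn3, a synapsin, had 43, 25 and 133 counts in mock and 0 in all salient libraries, at least 6.47-fold lower. Scg3, the most abundant, overlapped fully (198 to 499.8 CPM in mock, 248 to 422 CPM in salient libraries, and a log2 fold change of 0.19 that was -0.10 under library size alone). Postsynaptic scaffold and adhesion genes had a median of 0.77 over 21, 1.29 in aversive and -1 in appetitive libraries, -0.60 without aversive 3 and -0.30 in the fit of 3 groups (-0.72 for all genes). Shank1, a scaffold of spines, had 6.10 to 13.8 CPM in mock, 30.6 and 52.0 CPM in aversive and 109.5 and 3.45 CPM in appetitive libraries. Nlgn2, the neuroligin of inhibitory synapses, was 0.857 to 2.99 CPM in mock, 16.1 and 17.8 CPM in aversive and 0.591 and 13.7 CPM in appetitive libraries.

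**Figure D4:**
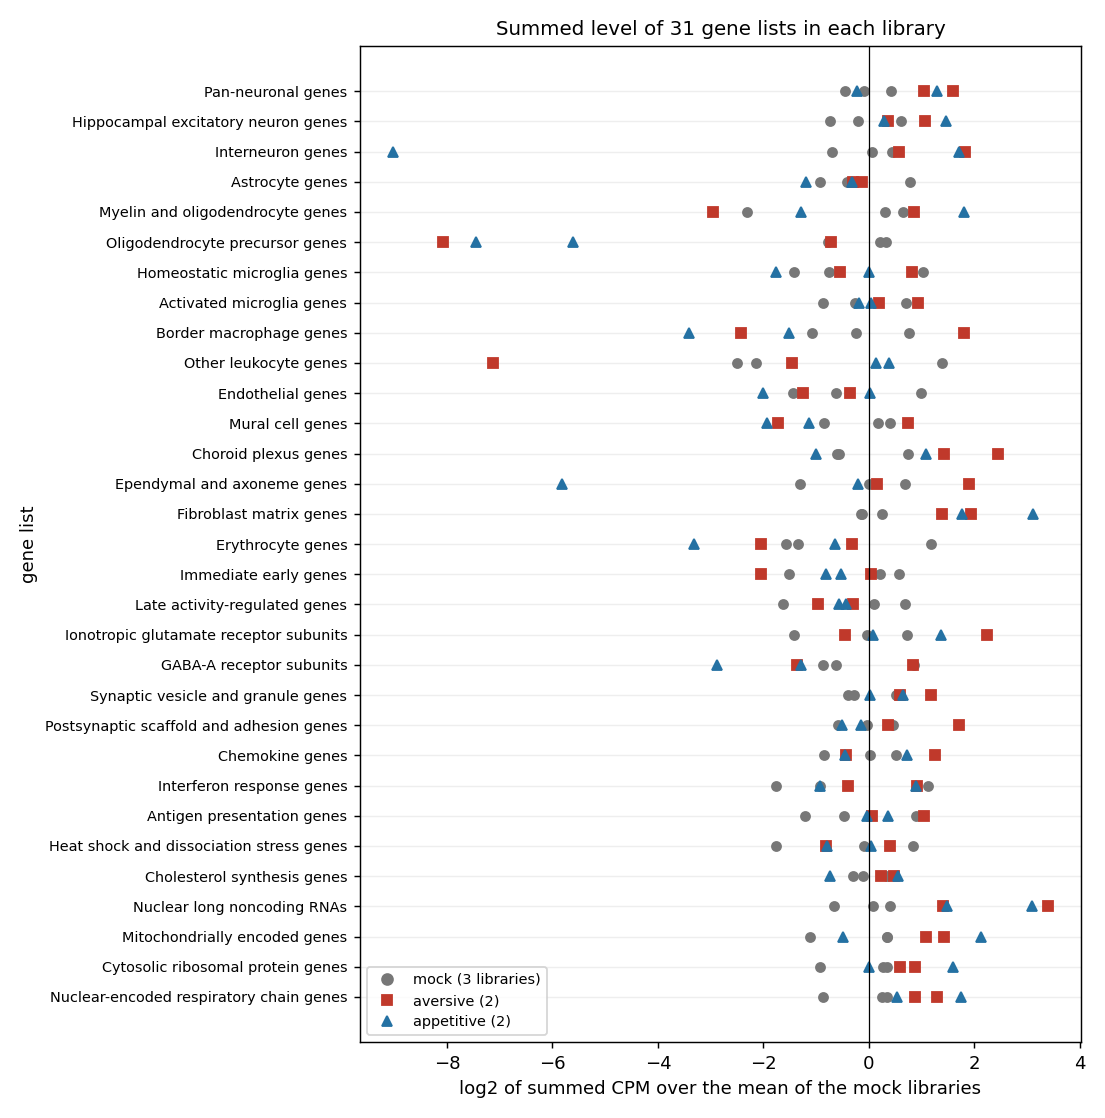
Summed normalized CPM of each of the 31 gene lists in each library, as log2 over the mean of the 3 mock libraries. All 4 salient libraries lie above all mock libraries for the respiratory chain, nuclear long noncoding RNA and fibroblast lists, while pan-neuronal, ependymal and interneuron sums overlap with mock.

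Astrocyte genes had lower fitted values for 12 of 16 members, with a median of -0.78, -0.41 in aversive and -1.27 in appetitive libraries, and no member was free of overlap with mock, although 5 of 16 were without mock 2 (31.2%, against 18.2% of all genes) and 4 without aversive 3 (25%, against 25.4%), all lower, and 3 without mock 1 (18.8%, against 4.14%), all higher. Gja1 (ENSMUSG00000050953, chromosome 10 from 56377330 to 56402513), the gap junction protein connexin 43, had 1990, 653 and 695 CPM in mock, 491 and 778 CPM in aversive and 242 and 294 CPM in appetitive libraries. Mock 1 was by far the highest, and aversive 3 alone overlapped with mock (log2 fold change -1.30, SE 0.63). Mlc1, a membrane protein of astrocyte endfeet, ran from 276 to 979 CPM in mock and from 25.3 to 333 CPM in salient libraries. Aldoc, the most abundant member and an enzyme of glycolysis, had 4938, 2591 and 1063 CPM in mock and 809 to 2111 CPM in salient libraries. Slc1a2, the main glutamate transporter, had 479.7 to 1288 CPM in mock and 722 to 2132 CPM in salient libraries, one of the 4 members with a higher fitted value.

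Genes of vessels had mostly lower fitted values, with overlap between the groups. All 13 endothelial genes had lower fitted values in every scaling, with a median log2 fold change of -0.98, -1.24 in aversive and -1.26 in appetitive libraries. Mock 1 was poor in them, with a summed level of 2180 CPM against 11740 and 3836 CPM in mock 2 and 3, 4636 and 2473 CPM in aversive and 5976 and 1470 CPM in appetitive libraries. Hence 0 of 13 were free of overlap, against 14.3% of all genes on the lower side, and 7 of 13 (53.8%, against 18.3%), all lower, without mock 1. Without mock 2, the richest, 4 of 13 had higher fitted values and the median was -0.49. Pecam1, an adhesion molecule of endothelium, had 46.8, 221 and 138 CPM in mock, 7.996 and 61.8 CPM in aversive and 26.4 and 32.9 CPM in appetitive libraries. Slco1a4, a transporter of the blood-brain barrier, had 173, 1021 and 447 CPM in mock and 59.6 to 362 CPM in salient libraries. Kdr, a receptor of vascular growth factor, was present in aversive 1 with 58.8 CPM and had 0.296 to 2.33 CPM in the other salient libraries, against 47.1 to 174 CPM in mock.

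Mural cell genes, of pericytes and smooth muscle, had lower fitted values for 8 of 9, with a median of -0.81, -0.51 in aversive and -3.68 in appetitive libraries. Rgs5, Kcnj8 and Pdgfrb were below mock in all 4, 3 of 9 against 14.3% of all genes, 0 of 9 under library size alone (14.9%) and 6 without aversive 3 (25.4%). Rgs5, the pericyte marker, had 119, 266 and 135 CPM in mock, 26.2 and 91.9 CPM in aversive and 1.55 and 26.0 CPM in appetitive libraries. Pdgfrb was only just separated in 3 of 4 salient libraries, with 45.7 to 48.4 CPM against at least 49.96 CPM in mock, and was 8.92 CPM in appetitive 2. Acta2, smooth muscle actin, had 26.8 to 263 CPM in mock, 699 CPM in aversive 3 and 9.05 to 83.8 CPM in the others, so its log2 fold change of 0.39 was -0.09 in the fit of 3 groups. Erythrocyte genes had lower fitted values for 5 of 5, 1 of them free of overlap (14.3% of all genes), with a median of -1.12 and like values in aversive (-1.11) and appetitive (-1.46) libraries, but 0.22 and 4 of 5 higher without mock 2, which held 2094 CPM of the list against 312 and 365 CPM in mock 1 and 3. Alas2, the heme synthesis enzyme of red cells, had 13.9, 79.5 and 22.3 CPM in mock and at most 0.406 CPM in salient libraries, while Hbb-bs, a beta globin with near-identical copies, had 201.5 to 1285 and 58.2 to 512 CPM.

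Microglia genes had no common direction. The homeostatic list had a median of -0.20 over 18, which was 0.04 with DESeq2's size factors, 1.06 without mock 3 and 0.06 without appetitive 2, with 0.21 in aversive and -0.22 in appetitive libraries. Mock 3 held 12270 CPM of the list, against 2253 and 3574 CPM in mock 1 and 2, 10690 and 4103 CPM in aversive and 6022 and 1780 CPM in appetitive libraries. Csf1r, the receptor that keeps microglia alive, had 369, 341 and 2301 CPM in mock, 344 and 218 CPM in aversive and 215 and 214.5 CPM in appetitive libraries. Cx3cr1, the fractalkine receptor, likewise reached 1166 CPM in mock 3 and 6.95 to 160 CPM in salient libraries, and its log2 fold change of -2.35 was 0.20 at the other end when single libraries were left out. C1qb, a complement component and the most abundant member, had 222 to 912 CPM in mock and 214 to 2027 CPM in salient libraries (log2 fold change 0.80, and -0.01 under library size alone). Aif1 was 220 and 87.6 CPM in aversive, 29.5 and 44.9 CPM in appetitive and 20.5 to 52.0 CPM in mock libraries.

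Activated microglia genes had a median of 1.15 over 15, from 1.09 in aversive and -2.20 in appetitive libraries, and -0.14 in the fit of 3 groups (-0.72 for all genes), with 7 of 15 at an unadjusted edgeR p under 0.05 between them. Cd63, a lysosomal membrane protein made by many cells, was separated in every scaling, with 156, 130 and 75.6 CPM in mock, 211.5 and 207.5 CPM in aversive and 350 and 304 CPM in appetitive libraries, and Fabp5, a fatty acid binding protein, also lay above mock in all 4. Cd9, of the same family as Cd63 and found in oligodendrocytes too, had 174 to 350 CPM in mock and 277 to 1297 CPM in salient libraries. Itgax, an integrin of reactive microglia, was lower in all 4, with 0.619 to 2.24 CPM in mock and at most 0.517 CPM in salient libraries. With at most 7 counts in a salient library, Itgax passed the filter on low counts through mock alone and so had to be lower. Apoe, the most abundant, ran from 2961 to 9979 CPM in mock and from 3970 to 10120 CPM in salient libraries, with a log2 fold change of 0.16 that was -0.12 under library size alone. Border macrophage genes had a median of -0.43 over 6, 0.26 without mock 3, with 0.56 in aversive and -6.33 in appetitive libraries. Pf4 had 8.24 to 16.9 CPM in mock, 82.5 CPM in aversive 1, 10.0 and 22.3 CPM in aversive 3 and appetitive 1 and 0 CPM in appetitive 2. Lyve1 and Cd163, further markers of these cells, had 4.15 to 7.50 and 2.46 to 12.5 CPM in mock and ranges of 0 to 13.0 and 0 to 6.06 CPM in salient libraries. Other leukocyte genes were mostly near the floor, with a median of -0.79 over 6 tested of 9. S100a8, a calcium-binding protein of neutrophils, had 32.3 CPM in mock 2 and under 1 CPM in all other libraries, S100a9 47.4 CPM in mock 2 and 37.2 CPM in appetitive 2, Nkg7, of cytotoxic cells, 40.0 CPM in appetitive 1 and 10.7 CPM in aversive 1, and the B cell gene Cd79a at most 1.07 CPM.

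Genes of the ventricle wall and meninges varied by library. Choroid plexus genes had higher fitted values for 9 of 11 with a median of 0.68, 1.44 in aversive and -1.38 in appetitive libraries. Ttr, the thyroid hormone carrier that this epithelium secretes, had 985, 981 and 2624 CPM in mock, 12630 and 6878 CPM in aversive and 801 and 2725 CPM in appetitive libraries. It was highest in the aversive libraries (unadjusted edgeR p of 0.0145 between the experiences). Enpp2, an enzyme that makes lysophosphatidic acid, had 1360 to 3091 CPM in mock and 1026 to 6431 CPM in salient libraries, and Aqp1, a water channel of the same epithelium, was lower in all 4 with 0.429 to 9.62 CPM in mock and at most 0.325 CPM. Ependymal and axoneme genes had a median of 0.34 over 19 tested of 20, -0.04 in the scaling without Mbp and Mobp and -0.81 without aversive 3, from 1.19 in aversive and -8.41 in appetitive libraries. Their summed level was 738 CPM in aversive 3, 218 CPM in aversive 1, 3.47 CPM in appetitive 1 and 171 CPM in appetitive 2, against 79.8 to 315 CPM in mock. Tmem212 had 120 CPM in aversive 3, 28.8 and 37.2 CPM in aversive 1 and appetitive 2 and 0 CPM in appetitive 1, against 1.54 to 27.1 CPM in mock. Ccdc40 and Rsph4a, needed to build motile cilia, were lower in all 4 (10.5% of the list, against 14.3% of all genes), Ccdc40 with 42, 51 and 1229 counts in mock and 4 counts in a single salient library, Rsph4a with 2.46 to 22.6 CPM in mock and 1.04 CPM in aversive 3 alone. Ccdc40 passed the filter on low counts through mock alone and so had to be lower. Cfap43, a further cilium gene, had 3.75 to 31.3 CPM in mock and 8.14 CPM in aversive 3, with at most 0.0986 CPM in the other salient libraries. Fibroblast matrix genes had a median of 0.47 over 8 tested of 9, -0.13 without mock 2 and -0.54 without aversive 3, from 1.31 in aversive and -4.17 in appetitive libraries. Their summed level did not overlap, 798 to 1052 CPM in mock and 2303 to 7685 CPM in salient libraries, but Ptgds made up most of it. Dcn, a proteoglycan of fibroblasts, had 7.48 to 20.4 CPM in mock, 87.2 and 67.1 CPM in aversive, and 1.33 and 0 CPM in appetitive libraries, and the collagen gene Col1a1 4.10 to 10.1 CPM in mock and 0.287 to 6.21 CPM in salient libraries.

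Immune and stress genes gave few shared differences. Chemokine genes had a median of 0.48 over 18 tested of 20, which was -0.09 under library size alone, -0.08 without Mbp and Mobp in the totals and -0.64 without aversive 1, with 1.06 in aversive and -1.06 in appetitive libraries. Ccl12 (ENSMUSG00000035352, chromosome 11 from 82101845 to 82103400), which attracts monocytes, was the only one free of overlap (5.56% of the list, against 4.29% of all genes). It was separated in every scaling, with 5.66, 15.2 and 15.99 CPM in mock, 189 and 24.1 CPM in aversive and 86.5 and 66.9 CPM in appetitive libraries (log2 fold change 2.90, SE 0.98, edgeR adjusted p = 0.192, DESeq2 adjusted p = 0.0316). Ccl4, the most abundant, had 26.4 to 208 CPM in mock and 72.8 to 626 CPM in salient libraries. Cxcl12, made by vessels and meninges, was 59.1 to 214 CPM in mock and 20.1 to 80.3 CPM in salient libraries, and Ccl22 0.425 to 3.38 and 0 to 0.665 CPM. Interferon response genes had a median of 0.52 over 16 in the scaling used here and 0.00 under both forms of library size, -0.03 without mock 1 and -0.18 without aversive 1, and 0.25 in aversive and 0.06 in appetitive libraries. Ifitm3, an antiviral membrane protein, had 34.5, 439 and 55.9 CPM in mock and 43.5 to 323.5 CPM in salient libraries, with a log2 fold change of 0.02 that was -0.42 under library size alone. Ifi27l2a was 3.08 to 12.4 CPM in mock and 0 to 44.9 CPM in salient libraries, Ifit3 6.29 to 19.5 and 3.02 to 50.8 CPM, and Mx1 16.4 CPM in aversive 1 and at most 1.37 CPM elsewhere.

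Antigen presentation genes had a median of 0.00 over 13, 0.22 in aversive and -0.36 in appetitive libraries. H2-Eb1, a class II chain, was lower in all 4 with 11.3 to 19.2 CPM in mock and 0.0986 to 3.03 CPM in salient libraries, as was Tap1, the peptide transporter (6.21 to 18.1 and 0 to 5.02 CPM), which makes 15.4% of the list against 14.3% of all genes. B2m, the light chain of class I and the most abundant, had 199 to 937 CPM in mock and 543 to 1365 CPM in salient libraries, and Nlrc5, a regulator of class I genes, 0.956 to 3.81 and 0.0203 to 1.53 CPM. Heat shock and dissociation stress genes had a median of -0.16 over 12, 0.00 with DESeq2's size factors, 0.67 without mock 2 and 0.05 without appetitive 2, with -0.05 in aversive and -0.30 in appetitive libraries. Only 1 of the 12 was higher in all 4 (8.33%, against 4.29% of all genes), and 0 under library size alone (2.06%). Nfkbia, an inhibitor of NF-kappa-B, ran from 127 to 1172 CPM in mock and from 162 to 884 CPM in salient libraries, Hsp90aa1 from 49.96 to 79.3 and from 41.9 to 171 CPM, Hsph1 from 83.4 to 139.7 and from 0.222 to 117 CPM, and Hspd1 from 23.0 to 31.6 and from 18.5 to 131 CPM. Cholesterol synthesis genes had a median of -0.03 over 17, 0.08 with DESeq2's size factors, 0.22 without aversive 1 and 0.16 without appetitive 1, with -0.04 in aversive and 0.09 in appetitive libraries. Within that list 2 of 17 genes were higher in all 4 (11.8%, against 4.29% of all genes) and 1 lower (5.88%, against 14.3%). Under library size alone 0 were higher (2.06% of all genes). Msmo1, a sterol demethylase step, was higher in all 4 except under library size, with or without Mbp and Mobp (229 to 436 CPM in mock, 499.7 to 697 CPM in salient libraries). Lss, lanosterol synthase, was lower in all 4 (21.2 to 31.2 and 0 to 5.07 CPM), and Cyp51 overlapped (83.1 to 129 and 0.591 to 84.9 CPM).

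On the lower side, the 10 non-overlapping genes with the smallest p, none of them called by edgeR and all but Gm26670 by DESeq2, were mostly rare transcripts. Of these, 9 had 8 to 49 counts in each mock library and 0 in all salient libraries: Ajm1, Gm28557, Hsf4, Zpbp, Gm26670, Gm16283, A730081D07Rik, Tgfbr3l and 1500035N22Rik. Means in mock were 0.374 CPM (Gm26670) to 0.515 CPM (1500035N22Rik), and the bounds from at least 1.69-fold to at least 2.32-fold lower, so little beyond detection separates them. These genes passed the filter on low counts through mock alone and so had to be lower. Hsf4, the heat shock factor of the lens, had 13, 10 and 31 counts in mock. The edgeR adjusted p was 0.0539 for each of the 10.

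Apold1 (ENSMUSG00000090698, chromosome 6 from 134981718 to 134986836), an early response gene of endothelial cells, was the abundant exception. It had 48.9, 265 and 32.1 CPM in mock, 0.192 and 0.629 CPM in aversive and 0 and 0.542 CPM in appetitive libraries. All salient values were a small fraction of the lowest mock value, in every scaling and without any single library (log2 fold change -8.35, SE 1.53, edgeR adjusted p = 0.0539, DESeq2 adjusted p = 5.8e-07). It was -8.13 in aversive and -8.69 in appetitive libraries.

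Further abundant genes of this kind, at 10 CPM or more in the mock mean, were chosen after their values were seen. Fbxo30 (ENSMUSG00000047648, chromosome 10 from 11281330 to 11298052), part of a ubiquitin ligase, had 756, 846 and 2151 counts in mock and 0, 4, 0 and 1 counts in salient libraries. Csgalnact2, an enzyme of chondroitin sulfate synthesis, had 761, 650 and 1581 counts in mock and 1, 3, 2 and 2 in salient libraries. Pacs1, a sorting protein of the trans-Golgi network, had 415, 335 and 2692 counts in mock and 3, 4, 1 and 1 in salient libraries. These 3 genes were well covered in every mock library and at the floor in every salient one. They passed the filter on low counts through mock alone and so had to be lower. Their fold changes and p-values therefore give no support by themselves. Tmem168, a membrane protein, had 25.3 to 54.9 CPM in mock and at most 0.296 CPM in salient libraries. Sh3bp4, of endocytosis, had 21.3 to 66.5 CPM and at most 0.197 CPM, and Pdxk, which activates vitamin B6, 32.7 to 58.3 CPM and at most 0.548 CPM. Dll4, the Notch ligand of arterial endothelium, had 6.88, 54.1 and 18.6 CPM in mock and 0.0479 to 0.162 CPM in salient libraries. Tmem168, Sh3bp4 and Dll4 had at most 14, 5 and 8 counts in a salient library. They too passed the filter on low counts through mock alone and so had to be lower, and their values give no support by themselves. Log2 fold changes of the genes chosen here were -9.58 (Fbxo30), -8.15 (Csgalnact2), -7.83 (Pacs1), -7.64 (Tmem168), -9.06 (Sh3bp4), -8.06 (Pdxk) and -7.96 (Dll4), with edgeR adjusted p-values of 0.0539 to 0.0615. Fitted to so few salient counts, such fold changes can exceed what the floor can show. Unadjusted edgeR p-values between aversive and appetitive libraries ran from 0.111 (Pdxk) to 0.929 (Dll4). The genes were chosen for low values in every salient library, so these p-values cannot show that the experiences were alike. For Pdxk the log2 fold change was -7.27 in aversive and -10.57 in appetitive libraries. The latter was fitted to 0 and 1 counts and goes beyond what the floor can show.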

How the data were processed

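Read counts per gene were used as the authors deposited them: by the methods of the study, reads were mapped with STAR to mm10 with the Ensembl annotation and counted without strand by featureCounts (versions of these tools not given). Of 53379 gene IDs, 53274 were matched to GENCODE M21. Genes kept by filterByExpr were tested in edgeR 4.0.16 (R 4.3.3, limma 3.58.1) with TMM factors and the quasi-likelihood F test on 2 groups. A fit of 3 groups served for each experience and for appetitive against aversive. p-values were adjusted over all tested genes by Benjamini-Hochberg and genes called under 0.05. Alternatives tried were DESeq2 1.42.0, RLE factors, library size alone, other filters, the replicate number as a block, a fit of all 10 libraries, single libraries left out, and, chosen after seeing the data, thinned counts and library size without Mbp and Mobp.

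Genes were named by rule: the 10 non-overlapping genes of smallest p on each side, called ones first, the 3 smallest p and the highest mean of each of 31 lists, and Fos, Arc, Egr1 and Npas4; other genes, such as defining markers, exceptions and non-overlapping members of a list, were chosen after their values were seen, and a few genes picked by the rule are not reported. Members and lists were chosen with earlier results of these data known. Tables and figures were made in Python 3.11.15 (pandas 2.3.3, numpy 2.4.6, matplotlib 3.10.9).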

Additional observations from a re-analysis of the deposited data

Results flagged for a closer look

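Among the 4 salient libraries of each named gene or list sum, a single value far from the other 3 was looked for with Dixon's test (critical value at the 95% level), and 31 of 181 values stood out. Only for normally distributed values is that level passed by chance about 1 time in 20, and CPM values were not transformed. Where the other 3 libraries hold 0 counts, as for Gad2, Ccdc40, Rsph4a, Inhba and Grid1, any count passes. Aversive 3 was the library in most cases: Pdxk 0.5479, Gad2 0.1218, Gpr17 16.44, Kcnj8 11.81, Acta2 698.6, Ccdc40 0.08117, Rsph4a 1.035, Cfap43 8.137, Grid1 0.08117, Grin2b 109.3, Gabrb1 283.1, Lss 5.073, Meg3 372.3 and Srrm2 663.9 CPM, and the sums of the oligodendrocyte precursor (47.2 CPM), mural cell (1153 CPM) and GABA-A receptor lists (380.7 CPM), all of them high. Aversive 1 was high for Csf1r (344.3 CPM), Lyve1 (12.98), Kdr (58.8), Mx1 (16.42), B2m (1365) and the border macrophage sum (227). Appetitive 2 was high for the myelin and oligodendrocyte genes Car2 (8696), Mog (3097) and Trf (1163), for S100a9 (37.2) and for Inhba (0.04927, a single count), and low for Pdgfrb (8.919). Appetitive 1 was high for Gabrd (80.81) and Hspd1 (130.7).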

How the results depend on the processing

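Where other settings moved a result, the cause was not tested. Called genes for salient against mock, 0 at first, were 206 with RLE factors, 10 without a filter, 400 with all 10 libraries, 1739 by DESeq2 and 0 to 1837 with single libraries left out, and 206, 3, 214, 1639 and 0 to 1835 of these common calls were free of overlap and had an unadjusted p of 0.05 or more between the experiences. Unadjusted p under 0.05 was met by 5839 genes without a filter, 308 with at least 10 counts in every library, 4221 in the fit of 3 groups, 4830 with all 10 libraries, 3532 by DESeq2 and 1368 to 3123 with single libraries left out. Calls for aversive against mock were 8 without a filter and 1606 by DESeq2; for appetitive against mock 121, 391 with all 10 libraries, 4425 by DESeq2 and 0 to 2316 with single libraries left out; for appetitive against aversive 329, 356 and 3940. Non-overlapping higher genes were 320 under library size alone, 309 with at least 10 counts, 312 without Mbp and Mobp and 706 to 1139 with single libraries left out; lower ones 3667 without a filter, 232 with at least 10 counts, 3341 by DESeq2 and 2429 to 3773. With the replicate number as a block, 0 genes were called and 1765 had an unadjusted p under 0.05. Residual correlations between libraries of the same number ran from -0.083 to 0.163. With 2 libraries per experience, such correlations cannot exclude pairing. Signs of log2 fold changes turned under library size alone for Mbp (-0.13), C1qb (-0.01), Apoe (-0.12), Rgs2 (-0.23), Scg3 (-0.10) and Ifitm3 (-0.42; -0.02 without a filter, -0.11 when thinned); with at least 10 counts for Apoe (-0.25), Rgs2 (-0.15), Scg3 (-0.24) and Ifitm3 (-0.45); without Mbp and Mobp for Apoe (-0.23), Rgs2 (-0.17), Gabrb1 (-0.02), Scg3 (-0.22) and Ifitm3 (-0.48); in the block fit for Npy (-3.97), Mbp (-1.39), Pf4 (-1.0), Nkg7 (-5.22), Gabrb1 (-3.19) and Mx1 (-0.52); in the fit of 3 groups, and with all 10 libraries, for Syn1 (-1.26, -1.37), Acta2 (-0.09, -0.22), Dcn (-1.13, -1.20), Gabrb1 (-3.33, -3.43), Mx1 (-0.60, -0.73) and Ifitm3 (-0.00094, -0.08). With single libraries left out the ranges were Acta2 -1.79 to 0.79, Rgs2 -0.11 to 1.48, Ifitm3 -0.55 to 1.84, Apoe -0.18 to 0.67, S100a9 -8.56 to 2.81, Bsg -0.75 to 0.69, Hba-a2 -1.82 to 0.27, Hbb-bs -1.67 to 0.22, Gabrb1 -3.44 to 0.63, Scg3 -0.10 to 0.61, Nfkbia -0.81 to 1.05, Cx3cr1 -3.07 to 0.20, Pf4 -0.36 to 1.47, Mx1 -1.31 to 2.86, Fos -0.81 to 0.03, Mbp -0.55 to 1.05 and Hspd1 -0.27 to 1.16.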
